A study of Sus scrofa with 8 samples.

Results

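Genes that drive, carry out or restrain cell division were followed in the cartilage cells of the condyle, the head of the lower jaw in its joint, in a pig model of temporomandibular osteoarthritis. The set was a list of 46 symbols, grouped by role: 5 G1 cyclins and kinases, 14 genes of S phase and DNA replication, 21 genes of mitosis and 6 inhibitors of cyclin-dependent kinases. Of these, 44 were found among the 18898 genes of the deposited table, 39 by the symbol in the table and 5 (AURKA, BUB1B, MKI67, NUSAP1 and RRM2) by a gene identifier. All 44 passed the filter on low counts, as did 16020 genes in all. CCNA2 and CDKN2A were not analysed here. The osteoarthritis group was 4 libraries from joints whose disc had been perforated with a 5.0 mm punch, and the control group was 4 libraries labelled only as control. Both groups are labelled wild type. Age, strain, time after surgery and whether control joints were opened are not given in the labels, and the samples are called biological replicates with no word on whether they are from different pigs. The p-values therefore measure only the variation among these libraries, which may be technical.

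A cell commits to division when D-type cyclins with CDK4 or CDK6 inactivate the retinoblastoma protein and release E2F transcription factors, which switch on the genes of DNA replication. The MCM helicase then unwinds DNA at replication origins, ribonucleotide reductase and thymidylate synthase supply nucleotides, and a later wave of genes builds the spindle and kinetochores and times the separation of chromosomes. Cyclin-dependent kinase inhibitors oppose these steps. In condylar cartilage, dividing cells lie mainly in a layer beneath the fibrous surface and feed the chondrocytes below, which leave the cycle as they mature. RNA levels of many of these genes track how many cells are in a given phase, and in bulk samples fewer cells of a type and less RNA per cell cannot be told apart.

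Total counts ran from 11354200 to 25412939 in the osteoarthritis libraries and from 13028760 to 19710638 in the control libraries. Controls 1 and 3 stood apart. Over genes outside the cell cycle lists they had the smallest root mean square log2 difference of any pair of the 8 libraries, 0.55. Their counts still differed beyond sampling noise, so they were kept as separate samples. The chi-square per degree of freedom was 39.0, against 33.8 for osteoarthritis replicates 1 and 2. It cannot tell whether 2 libraries come from different animals. The defining chondrocyte markers were present throughout: the 10 of 10 markers found summed to between 20322 and 139448 CPM in osteoarthritis libraries and between 7436 and 16811 CPM in controls. CPM here means counts as a share of the library total, scaled by TMM. Osteoclast markers (5 of 6 found) summed to between 1285 and 2762 CPM in osteoarthritis libraries, and to 10.7, 1396, 18.6 and 1849 CPM in controls 1 to 4. Osteoblast markers (6 of 6 found) summed to between 2876 and 4409 CPM in osteoarthritis libraries, and to 375, 2224, 400 and 2296 CPM in controls 1 to 4. Controls 1 and 3 were therefore low in bone cell markers where the other 6 libraries were high, and the role groups, the pathway lists and the genes that rest on them are also given without them.

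No cell cycle gene passed the test between osteoarthritis and control cartilage. By edgeR's quasi-likelihood test with Benjamini-Hochberg adjustment over all genes tested, 0 of 44 members had an adjusted p under 0.05, against 0.618% of all genes (0.225% higher and 0.393% lower), and the smallest adjusted p of a member was 0.15 for MCM7. At an unadjusted p under 0.05, 5 members were lower in osteoarthritis (E2F1, MCM7, MCM3, AURKA and CCND1), which is 11.4% of members against 7.65% of all genes, and 1 was higher (CDKN1C), which is 2.27% against 7.52%. DESeq2 called 2 members lower, E2F1 (adjusted p = 0.0386) and MCM7 (adjusted p = 0.026), where it called 5.22% of all genes. The limma-voom fit called 0 members and 0.743% of all genes. With sample weights, limma-voom called 14 of 44 members, 13 lower and 1 higher. It then called 3329 of 16020 genes (20.8%), 1354 lower and 1975 higher.

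Although single genes did not pass, most estimates lay on the same side: the log2 fold change of osteoarthritis over control was below 0 for 35 of 44 members (79.5%), against 49.6% of all genes. The median log2 fold change was -0.43 for the G1 cyclins and kinases, -0.37 for the S phase genes, -0.30 for the mitosis genes and 0.21 for the inhibitors, beside 0.0049 for all genes tested, whose quartiles were -0.34 and 0.35. Genes of one library are not independent of each other, so the count is a description. The two-sided 95% interval of the fold change included 0 for 38 of 44 members. It comes from the same test as the unadjusted p, so this count only restates the members without an unadjusted p under 0.05. The levels of the groups did not overlap for 3 members, all lower in osteoarthritis (E2F1, MCM7 and AURKA), which is 6.82% of members against 5.52% of all genes, and 0 members were higher without overlap, against 5.69% of all genes.

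**Figure D1:**
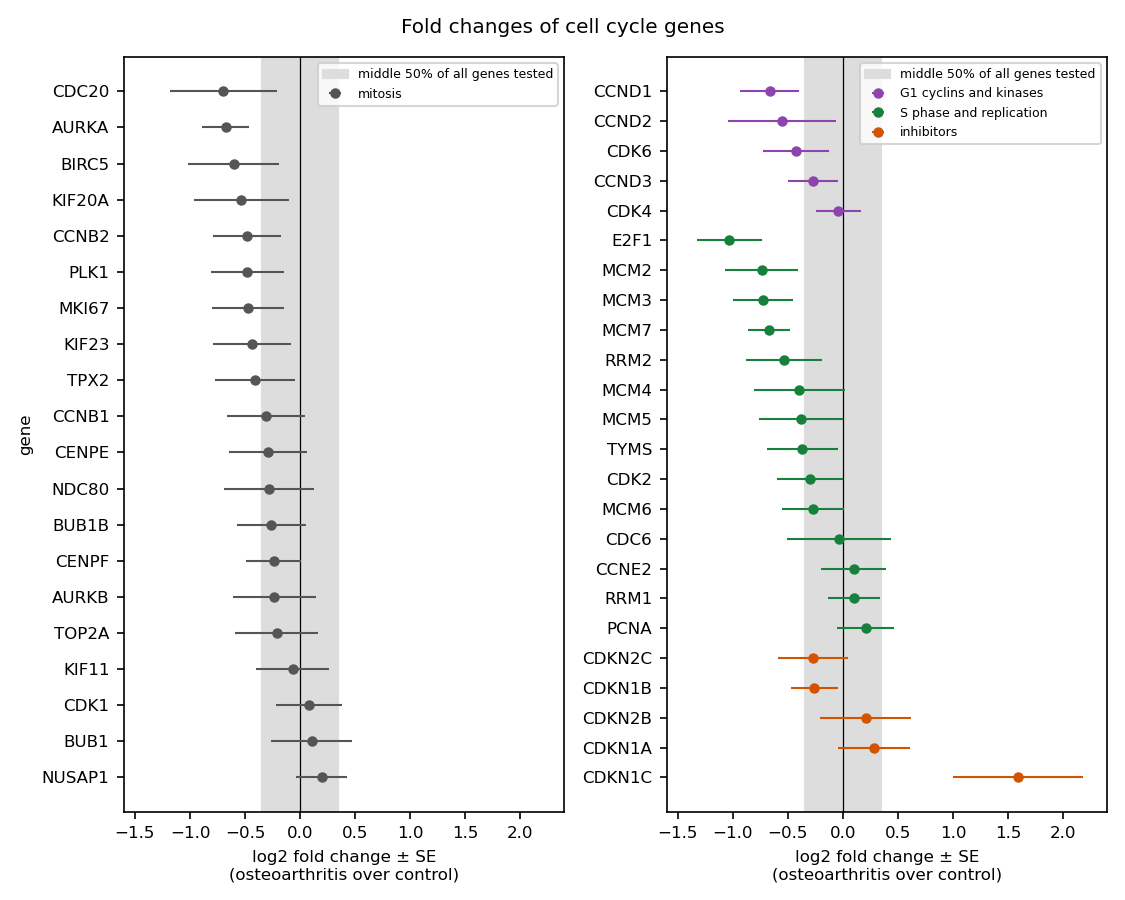
Log2 fold change of osteoarthritis over control for each of the 44 genes, as points with standard errors, in mitosis (left panel) and in the other 3 role groups (right panel); the grey band spans the quartiles of all genes tested. Most S phase and mitosis genes lie left of 0 and CDKN1C lies farthest to the right at 1.59.

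The order of the libraries was shared across the S phase and mitosis genes. Controls 1 and 3 were the 2 highest libraries of the 8 for 9 of 14 S phase genes and 12 of 20 mitosis genes, 61.8% of the 34 genes together, against 11.3% of all genes tested. Relative to each gene's mean over the 8 libraries, the S phase genes averaged -0.16, 0.0071, -0.40 and -0.063 on the log2 scale in osteoarthritis replicates 1 to 4, against 0.55, -0.31, 0.62 and -0.25 in control replicates 1 to 4. The mitosis genes averaged -0.22, 0.032, -0.49 and 0.15 in osteoarthritis replicates 1 to 4, against 0.61, -0.23, 0.61 and -0.46 in control replicates 1 to 4. Controls 2 and 4 therefore fell within the range of the osteoarthritis libraries, and control 4 was the lowest library of all for 8 mitosis genes. Among the osteoarthritis libraries, replicate 3 was the lowest of the 8 for 8 S phase genes and 7 mitosis genes.

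**Figure D2:**
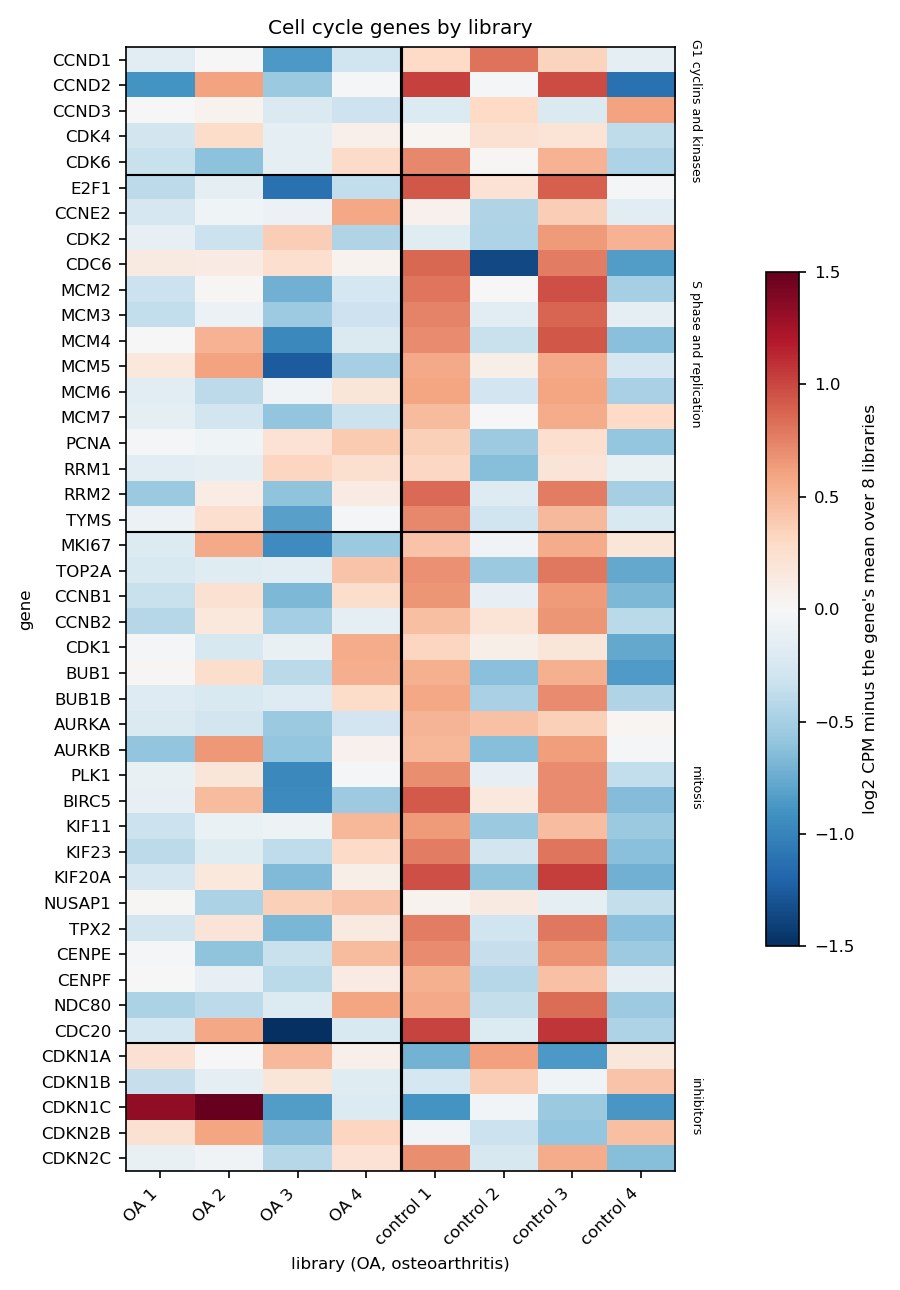
Each row is a gene and each column a library, with osteoarthritis (OA) left of control; colour is log2 CPM minus the gene's mean over the 8 libraries, and the scale ends at 1.5 in either direction. Columns control 1 and control 3 are red for nearly all S phase and mitosis genes, controls 2 and 4 are mostly blue, and OA 3 is the bluest osteoarthritis column.

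Controls 1 and 3 were then left out, a choice made after seeing the data. The median log2 fold change became 0.18 for the S phase genes and 0.36 for the mitosis genes. It was 0.0912 for the G1 cyclins and kinases and 0.0355 for the inhibitors, beside 0.053 for all genes tested. Of the 20 mitosis genes, 17 then lay above 0, and of the 44 members 32 did, against 53.3% of all genes. Taken relative to the median of all genes, 25 of 44 members turned direction, and edgeR again called 0 of 44, with a smallest adjusted p of 0.18, where it called 0.429% of all genes. At an unadjusted p under 0.05, 4 members were then higher (CDC6, PCNA, TOP2A and BUB1), which is 9.09% against 9.92% of all genes, and 1 was lower (CCND3), which is 2.27% against 9.58%. The 5 genes with an unadjusted p under 0.05 for lower levels over all 8 libraries stayed below 0, E2F1 at a log2 fold change of -0.52, MCM7 at -0.45, AURKA at -0.53, CCND1 at -0.67 and MCM3 at -0.13. Another 7 members were also below 0, among them CCND3 at -0.54, MKI67 at -0.20, CDK2 at -0.19 and MCM2 at -0.03. The estimates of CCND2 (0.41), RRM2 (0.19), TPX2 (0.39), CDC20 (0.19), KIF20A (0.57) and CDKN2C (0.41) lay above 0 without the pair and below 0 with it. That of CDC6 was 1.21 without the pair and -0.03 with it. The lower medians of the S phase and mitosis genes in osteoarthritis were thus not seen without controls 1 and 3. That pair was the 2 highest libraries for 61.8% of the 34 genes, so leaving it out raises their estimates by construction. Only controls 2 and 4 then stood for the control group, so these values describe the dependence on the pair and do not test a direction.

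**Figure D3:**
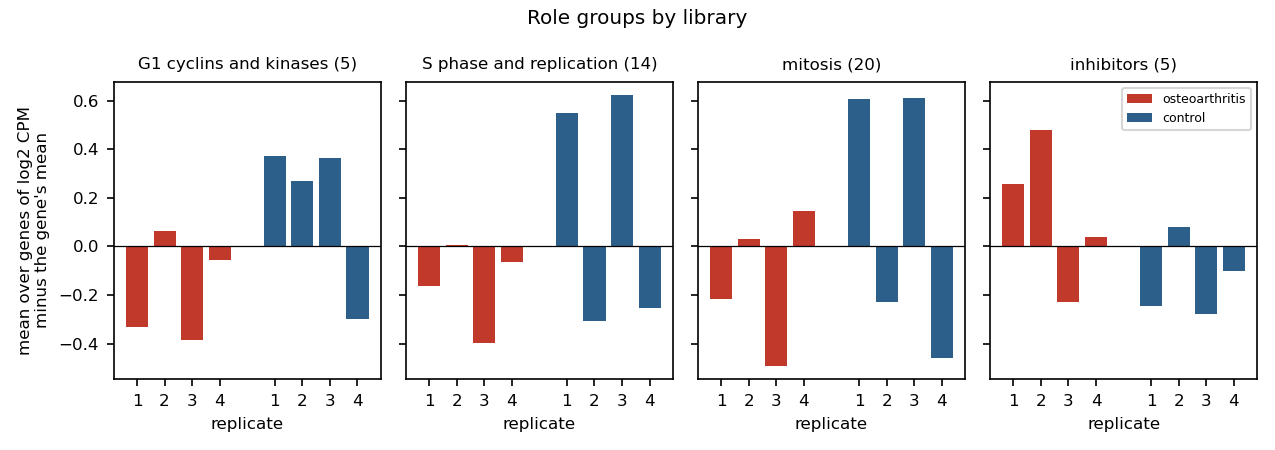
Bars give, for each library, the mean over the genes of a role group of log2 CPM minus the gene's own mean, with osteoarthritis replicates 1 to 4 left of control replicates 1 to 4 in each panel; the number of genes is in the panel title. In S phase and mitosis the bars of control replicates 1 and 3 reach between 0.55 and 0.62, while control replicates 2 and 4 lie below 0.

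Markers of other cell types moved with the same libraries. Macrophage markers (8 of 8 found) summed to between 202 and 718 CPM in osteoarthritis libraries, and to 30.5, 612, 34.9 and 694 CPM in controls 1 to 4, so controls 1 and 3 were again the low pair. Endothelium markers (6 of 6 found) summed to between 204 and 285 CPM in osteoarthritis libraries, and to 146, 289, 145 and 237 CPM in controls 1 to 4, with the same low pair. The fibroblast list (7 of 7 found) summed to between 115332 and 168289 CPM in osteoarthritis libraries, and to 130206, 143158, 134311 and 182251 CPM in controls 1 to 4. That sum was not higher in controls 1 and 3 than in controls 2 and 4. COL3A1, a single gene of that list picked after its values were seen, was higher in controls 1 and 3. It was at 6658, 9936, 2705 and 7481 CPM in osteoarthritis replicates 1 to 4, against 13710, 1050, 13747 and 1590 CPM in controls 1 to 4. The other genes of the list are not given singly, so COL3A1 does not stand for the list. Basal epithelium markers (6 of 7 found) summed to between 1.24 and 2.37 CPM in osteoarthritis libraries, and to 386, 226, 204 and 93.2 CPM in controls 1 to 4, and all 5 tested were called lower by edgeR. Haemoglobin and other erythroid markers (5 of 8 found) summed to between 16.2 and 239 CPM in osteoarthritis libraries, highest in replicate 3, and to 1.22, 81.7, 3.61 and 1139 CPM in controls 1 to 4. Osteoarthritis replicate 3 and control 4 had the lowest mean mitosis levels of their groups. For the S phase genes, the lowest mean log2 deviations were -0.40 in osteoarthritis replicate 3 and -0.31 in control 2, with control 4 at -0.25. Neutrophil precursor markers (5 of 7 found) were also highest in osteoarthritis replicate 3, at 85.0 CPM, and in control 4, at 93.9 CPM, and lay below 5 CPM in the other 6 libraries. B cell precursor markers (3 of 8 found) were highest in the same libraries, at 371 CPM in osteoarthritis replicate 3 and 372 CPM in control 4, with ranges of 152 to 371 CPM in osteoarthritis libraries and 216 to 372 CPM in controls. T cell markers (6 of 6 found) summed to between 6.02 and 25.2 CPM in osteoarthritis libraries and between 9.76 and 37.0 CPM in controls, and skeletal muscle markers (5 of 6 found) to between 2.13 and 28.1 CPM in osteoarthritis libraries and between 10.1 and 19.8 CPM in controls. Outside the basal epithelium list, edgeR called 0 marker genes. No marker found was at 0 in all libraries of a group, and the part of these cell types in the cell cycle levels was not tested.

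E2F1, the transcription factor that switches on replication genes, gave the largest difference of the S phase members. E2F1 (ENSSSCG00000007268; chromosome 17, 37178587 to 37190118 in the RefSeq annotation of Sscrofa11.1, a protein-coding gene) was at 6.95, 8.21, 4.20 and 7.08 CPM in osteoarthritis replicates 1 to 4, against 17.3, 10.6, 17.0 and 8.97 CPM in control replicates 1 to 4. Every osteoarthritis library was below every control, although the closest pair was only 8.21 against 8.97 CPM. The log2 fold change was -1.03 ± 0.30 (SE, n = 4 each; edgeR adjusted p = 0.16), and it ran from -1.21 to -0.88 when each library was left out in turn. With controls 1 and 3 left out together it was -0.52, outside that range (edgeR adjusted p = 0.40).

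The 6 subunits of the MCM helicase (MCM2 to MCM7) were all estimated lower in osteoarthritis, with log2 fold changes between -0.74 and -0.27, and none passed the test. MCM7 (ENSSSCG00000032180; chromosome 3, 8005890 to 8014047) was the most even of them: 17.1, 15.4, 12.4 and 14.9 CPM in osteoarthritis replicates 1 to 4, against 25.9, 18.7, 27.5 and 22.9 CPM in control replicates 1 to 4. The groups did not overlap, and the log2 fold change was -0.67 ± 0.19 (SE; edgeR adjusted p = 0.15). MCM3 was at 11.6, 14.0, 10.3 and 12.1 CPM in osteoarthritis replicates 1 to 4, against 25.1, 13.4, 27.4 and 13.5 CPM in control replicates 1 to 4 (log2 fold change -0.73 ± 0.28 SE, edgeR adjusted p = 0.26). Here controls 2 and 4 sat inside the osteoarthritis range and the difference came from controls 1 and 3, as it did for MCM2 (-0.74 ± 0.33, edgeR adjusted p = 0.34), where the osteoarthritis libraries spanned 8.54 to 14.3 CPM and the controls stood at 24.5, 14.2, 27.5 and 10.001 CPM. MCM4 and MCM5 varied more within osteoarthritis than their group means differed: MCM5 ran from 9.58 CPM in replicate 3 to 34.4 CPM in replicate 2, against 19.2 to 33.8 CPM in controls. MCM6, the least shifted subunit, averaged 24.0 ± 3.96 CPM in osteoarthritis and 29.0 ± 10.9 CPM in control cartilage (SD, n = 4 each).

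Of the other replication genes, the 2 chains of ribonucleotide reductase had estimates on opposite sides of 0. RRM2, the regulatory chain whose level follows S phase, was at 21.0, 33.5, 20.4 and 33.7 CPM in osteoarthritis replicates 1 to 4, against 55.7, 27.1, 52.7 and 21.9 CPM in control replicates 1 to 4 (log2 fold change -0.54 ± 0.34, edgeR adjusted p = 0.50). RRM1, the catalytic chain, averaged 44.3 ± 7.85 CPM in osteoarthritis and 41.2 ± 11.07 CPM in control cartilage (SD). The difference between the chains was not tested. TYMS, thymidylate synthase, averaged 5.71 ± 1.604 CPM in osteoarthritis and 7.32 ± 2.57 CPM in controls, and CDK2, the kinase that starts replication with cyclin E, 10.2 ± 2.72 CPM in osteoarthritis and 12.5 ± 4.44 CPM in controls. PCNA, the clamp that holds DNA polymerase on its template, lay on the other side, at 14.2 ± 2.12 CPM in osteoarthritis and 12.3 ± 4.15 CPM in controls. CDC6, which loads the MCM helicase at origins, was even in osteoarthritis and split among the controls: 2.08 to 2.39 CPM across the 4 osteoarthritis libraries, against 3.67, 0.787, 3.43 and 1.128 CPM in controls 1 to 4, means of 2.22 CPM in osteoarthritis and 2.25 CPM in controls. CCNE2, an E-type cyclin, averaged 3.19 CPM in osteoarthritis and 2.98 CPM in controls, a difference below either group's SD.

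**Figure D4:**
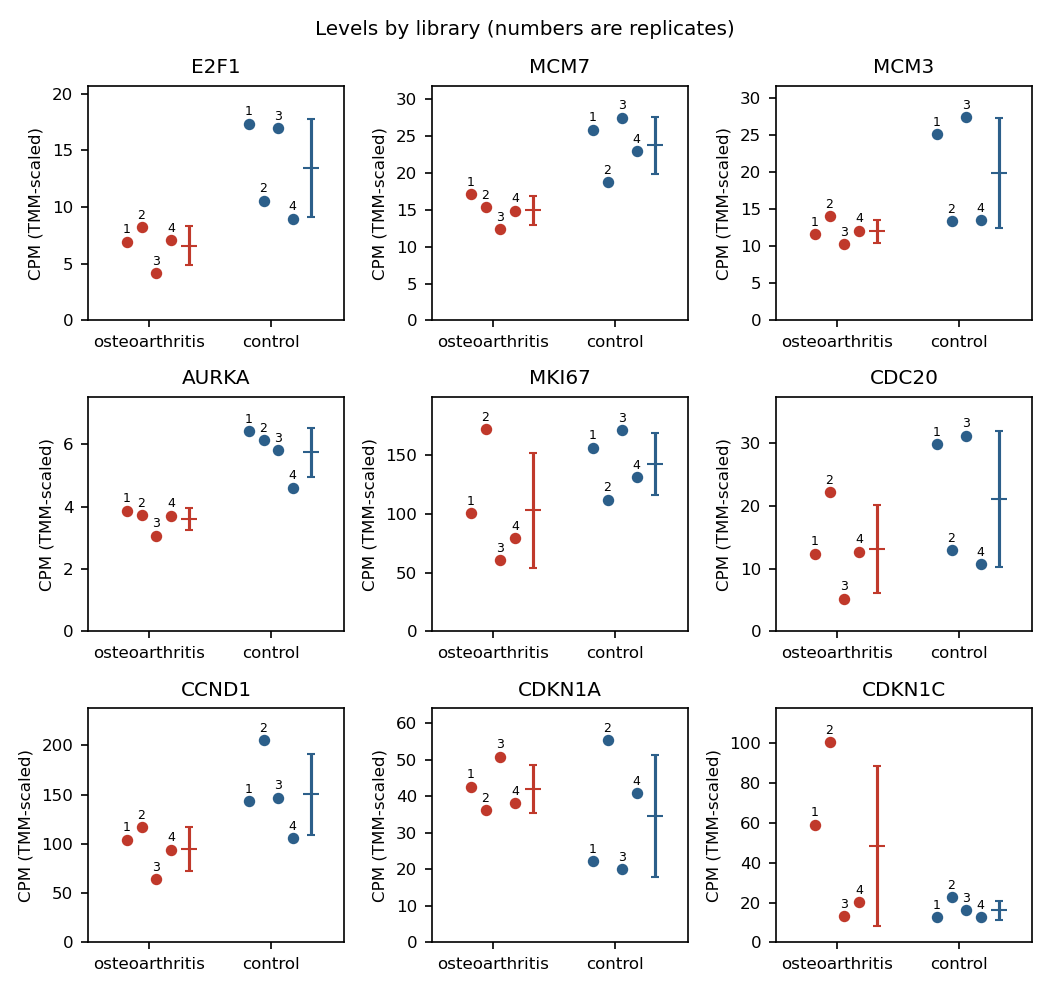
Points are the CPM of 9 genes in each library, numbered by replicate, with osteoarthritis left of control and the group mean with its SD beside the points. The groups separate for E2F1, MCM7 and AURKA, controls 1 and 3 stand above controls 2 and 4 for MCM3 and CDC20, and CDKN1C is high in osteoarthritis replicates 1 and 2.

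Among the mitosis genes, AURKA was the one whose groups did not overlap. AURKA (ENSSSCG00000007493; chromosome 17, 56954838 to 56972435), a kinase of centrosomes and the spindle poles, was at 3.87, 3.72, 3.07 and 3.71 CPM in osteoarthritis replicates 1 to 4, against 6.42, 6.14, 5.81 and 4.61 CPM in control replicates 1 to 4. The log2 fold change was -0.67 ± 0.21 (SE; edgeR adjusted p = 0.19). TPX2, the protein that activates Aurora A on the spindle, followed the library pattern instead, at 14.1, 19.6, 10.6 and 18.7 CPM in osteoarthritis replicates 1 to 4, against 29.2, 13.9, 29.6 and 11.08 CPM in control replicates 1 to 4. CDC20, which activates the ubiquitin ligase that triggers chromosome separation, gave the largest estimate of the mitosis genes and also the widest error: 12.4, 22.3, 5.20 and 12.7 CPM in osteoarthritis replicates 1 to 4, against 29.9, 12.9, 31.2 and 10.7 CPM in control replicates 1 to 4 (log2 fold change -0.70 ± 0.49, edgeR adjusted p = 0.54). The highest osteoarthritis library of CDC20 exceeded both control 2 and control 4.

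MKI67, whose protein is the usual stain for cycling cells, was at 101, 173, 60.6 and 79.2 CPM in osteoarthritis replicates 1 to 4, against 157, 112, 171 and 131 CPM in control replicates 1 to 4. One osteoarthritis library had the highest value of all 8, while the other 3 were below every control (log2 fold change -0.47 ± 0.33, edgeR adjusted p = 0.53). TOP2A, the topoisomerase that untangles sister chromosomes, was at 26.1, 26.9, 27.1 and 41.1 CPM in osteoarthritis replicates 1 to 4, against 49.1, 20.8, 52.7 and 17.99 CPM in control replicates 1 to 4, so its osteoarthritis values lay between the 2 levels of control. The entry kinase CDK1 averaged 5.48 ± 1.47 CPM in osteoarthritis and 5.24 ± 1.52 CPM in controls (SD). Its partners CCNB1 and CCNB2 averaged 5.36 and 2.37 CPM in osteoarthritis, against 6.62 and 3.32 CPM in controls, and the polo kinase PLK1 averaged 10.2 ± 3.08 CPM in osteoarthritis and 14.2 ± 5.19 CPM in controls.

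The kinetochore and checkpoint genes had group means that differed by less than the larger group SD. BUB1 averaged 9.68 CPM in osteoarthritis and 8.97 CPM in controls, and BUB1B, its partner in delaying anaphase until chromosomes are attached, averaged 7.57 CPM in osteoarthritis and 9.06 CPM in controls. CENPE, CENPF and NDC80, which link kinetochores to microtubules or assemble there, had log2 fold changes of -0.29, -0.24 and -0.29 with standard errors of 0.35, 0.25 and 0.41. AURKB and BIRC5 belong to one complex that corrects faulty attachments. AURKB was at 2.77, 6.52, 2.78 and 4.35 CPM in osteoarthritis replicates 1 to 4, against 5.89, 2.68, 6.42 and 4.07 CPM in control replicates 1 to 4. BIRC5 was at 3.75, 5.67, 2.099 and 2.80 CPM in osteoarthritis replicates 1 to 4, against 7.72, 4.57, 6.69 and 2.60 CPM in control replicates 1 to 4. Both genes were highest in osteoarthritis replicate 2 within their group and overlapped between groups.

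The motor proteins of the spindle repeated the pattern of controls 1 and 3. KIF20A, needed for the cut between daughter cells, was at 9.65, 12.8, 7.24 and 12.2 CPM in osteoarthritis replicates 1 to 4, against 22.4, 7.56, 23.5 and 6.96 CPM in control replicates 1 to 4. KIF11, which pushes spindle poles apart, averaged 9.28 ± 2.43 CPM in osteoarthritis and 9.71 ± 4.17 CPM in controls, and KIF23 averaged 6.95 ± 1.64 CPM in osteoarthritis and 9.42 ± 4.42 CPM in controls. NUSAP1, a microtubule-bundling protein, was the member of this group with the highest estimate, at 57.0, 40.4, 72.2 and 76.0 CPM in osteoarthritis replicates 1 to 4, against 58.3, 61.6, 50.7 and 43.8 CPM in control replicates 1 to 4. Controls 1 and 3 ranked in the middle of the 8 libraries.

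CCND1, the D-type cyclin that answers growth signals, was the one G1 gene with an unadjusted p under 0.05. It stood at 104, 117, 64.0 and 94.3 CPM in osteoarthritis replicates 1 to 4, against 143, 205, 147 and 106 CPM in control replicates 1 to 4. One osteoarthritis library, replicate 2, exceeded the lowest control (log2 fold change -0.66 ± 0.27, edgeR adjusted p = 0.29). Unlike the replication genes, CCND1 was highest in control 2. CCND2 was at 37.3, 106, 47.3 and 68.5 CPM in osteoarthritis replicates 1 to 4, against 142, 69.0, 137 and 32.0 CPM in control replicates 1 to 4, the pattern of controls 1 and 3 again. CCND3 averaged 21.7 ± 2.58 CPM in osteoarthritis and 26.2 ± 7.48 CPM in controls and was lowest among controls in replicates 1 and 3. The kinase partners CDK4 and CDK6 averaged 19.9 and 72.1 CPM in osteoarthritis, against 20.5 and 97.0 CPM in controls.

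CDKN1C, an inhibitor of G1 kinases that is expressed as growth plate chondrocytes of the mouse stop dividing and mature, was the member with the largest fold change. It stood at 59.1, 100.4, 13.2 and 20.3 CPM in osteoarthritis replicates 1 to 4, against 12.6, 22.8, 16.01 and 12.8 CPM in control replicates 1 to 4. Osteoarthritis replicates 1 and 2 were far above all controls, while replicates 3 and 4 lay within the control range, and the log2 fold change of 1.59 ± 0.59 did not pass (edgeR adjusted p = 0.26). It was 0.95 at the lowest and 1.89 at the highest when single libraries were left out. Osteoarthritis replicates 1 and 2 also had the highest summed chondrocyte markers, 139448 and 120697 CPM, against 20322 and 43895 CPM in osteoarthritis replicates 3 and 4; whether the markers account for CDKN1C was not tested.

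CDKN1A, the inhibitor induced by p53, ran opposite to the replication genes among the controls: 42.6, 36.1, 50.9 and 38.2 CPM in osteoarthritis replicates 1 to 4, against 22.2, 55.4, 20.1 and 40.9 CPM in control replicates 1 to 4. Controls 1 and 3 were the 2 lowest libraries and control 2 the highest, and the log2 fold change of 0.28 ± 0.33 (edgeR adjusted p = 0.73) became -0.15 without controls 1 and 3. CDKN1B, an inhibitor of quiescent cells, averaged 15.2 ± 2.39 CPM in osteoarthritis and 18.2 ± 4.11 CPM in controls. CDKN2C, which blocks CDK4 and CDK6, did not follow CDKN1A: it was at 7.75, 8.12, 6.24 and 9.80 CPM in osteoarthritis replicates 1 to 4, against 13.6, 7.09, 12.4 and 5.39 CPM in control replicates 1 to 4, the library order of the replication genes. CDKN2B had as few as 4 counts in a library and stood below 1.2 CPM in all 8 (log2 fold change 0.21 ± 0.41 SE).

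Set per length, the levels of the genes differed widely. Dividing CPM by the deposited effective length, CDKN1C had the highest osteoarthritis mean of the members, 36.3 CPM per kilobase, against 11.6 in controls. It was at 44.1, 77.0, 8.91 and 15.3 in osteoarthritis replicates 1 to 4. In replicates 3 and 4 it lay below CDKN1A, at 27.0 and 20.1. CCND1 was the highest in controls, with 21.4 CPM per kilobase in osteoarthritis and 33.97 in controls. CDKN1A averaged 22.4 in osteoarthritis and 18.2 in controls, MKI67 14.8 in osteoarthritis and 23.2 in controls, and CDK4 18.97 in osteoarthritis and 15.4 in controls. CDKN2B was lowest, at 0.362 over the 8 libraries. The MCM subunits, which assemble in equal numbers, averaged over the 8 libraries 10.03 CPM per kilobase for MCM7, 9.31 for MCM4, 8.47 for MCM5, 4.58 for MCM2, 4.48 for MCM3 and 3.24 for MCM6. The ribonucleotide reductase chains were close, at 12.4 for RRM2 and 11.3 for RRM1. These levels depend on the gene models behind the effective lengths, and neighbours such as MCM7 and MCM4, or RRM2 and RRM1, differed by less than the range of each over libraries. Within a group, the highest library exceeded the lowest by a median ratio of 1.86 in osteoarthritis and 2.39 in controls for the mitosis genes, and of 1.66 in osteoarthritis and 2.04 in controls for the S phase genes.

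Other genes of the same processes were taken from pathway lists. Of 46 further S phase and replication genes tested, 0 were called by edgeR, unadjusted p-values under 0.05 fell on 10 lower and 0 higher genes, 42 lay below 0 and the median log2 fold change was -0.29. Of all genes tested, 7.65% were lower and 7.52% higher at that p, and 49.6% lay below 0. Without controls 1 and 3, 5 lower and 0 higher genes had such a p, 24 lay below 0 and the median was -0.02. Of all genes tested without that pair, 9.58% were lower and 9.92% higher at that p, and 53.3% lay above 0. The 3 genes of this list with the smallest p over all 8 libraries were CHAF1A, CLSPN and UNG. CHAF1A, a subunit of the chaperone that lays histones on new DNA, was at 3.32, 5.16, 4.38 and 4.27 CPM in osteoarthritis replicates 1 to 4, against 10.8, 12.4, 12.8 and 7.45 CPM in control replicates 1 to 4. The groups were well apart, and the log2 fold change of -1.34 ± 0.24 just missed the threshold (edgeR adjusted p = 0.0502). UNG, the glycosylase that removes uracil from DNA, was low, with little spread within each group in these libraries. It was at 2.15, 2.12, 2.22 and 2.19 CPM in osteoarthritis replicates 1 to 4, against 4.36, 3.62, 4.40 and 4.36 CPM in control replicates 1 to 4 (log2 fold change -0.95 ± 0.22, edgeR adjusted p = 0.097). In both genes controls 2 and 4 were above all osteoarthritis libraries, and without controls 1 and 3 the log2 fold changes were -1.16 for CHAF1A and -0.85 for UNG. CLSPN, a checkpoint protein at replication forks, averaged 4.24 ± 0.647 CPM in osteoarthritis and 6.97 ± 1.17 CPM in controls (SD; edgeR adjusted p = 0.18). Its log2 fold change was -0.71 over all 8 libraries and -0.45 without controls 1 and 3.

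Of 58 further mitosis genes tested, 0 were called by edgeR, 6 lower and 0 higher genes had an unadjusted p under 0.05, 49 lay below 0 and the median log2 fold change was -0.31. Of all genes tested, 7.65% were lower and 7.52% higher at that p, and 49.6% lay below 0. Without controls 1 and 3, 4 higher and 2 lower mitosis genes had such a p, 18 lay below 0 and the median was 0.30. Among all genes without that pair, 9.92% were higher and 9.58% lower at that p, and 53.3% lay above 0. CDC25B, a phosphatase that activates mitotic kinases, was at 25.5, 29.0, 26.6 and 25.3 CPM in osteoarthritis replicates 1 to 4, against 37.1, 57.6, 39.1 and 43.2 CPM in control replicates 1 to 4 (log2 fold change -0.73 ± 0.19, edgeR adjusted p = 0.12), without overlap. ARHGAP11A, a regulator of RHOA in dividing cells, averaged 5.46 ± 1.54 CPM in osteoarthritis and 17.6 ± 9.09 CPM in controls (SD; edgeR adjusted p = 0.14), with control 4 inside the osteoarthritis range. SPC24, a kinetochore subunit, averaged 5.27 ± 1.23 CPM in osteoarthritis and 8.99 ± 2.23 CPM in controls (edgeR adjusted p = 0.23). The log2 fold change of SPC24 was -0.77 over all 8 libraries and -0.47 without controls 1 and 3. Those of CDC25B and ARHGAP11A without that pair were -0.88 and -1.44.

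The retinoblastoma, E2F and DREAM complex list had 12 genes tested, with 0 called by edgeR. At an unadjusted p under 0.05, 1 gene was higher and 0 were lower, where 7.52% of all genes were higher and 7.65% lower. The median log2 fold change of the list was -0.10, which was 0.01 without controls 1 and 3 (13 tested). RB1, the retinoblastoma protein itself, was at 11.6, 12.2, 22.0 and 15.7 CPM in osteoarthritis replicates 1 to 4, against 9.78, 10.7, 9.76 and 11.5 CPM in control replicates 1 to 4 (log2 fold change 0.56 ± 0.23, edgeR adjusted p = 0.31), a gap of less than 0.1 CPM between the closest libraries of the groups. LIN52 and TFDP1, a DREAM subunit and the partner of E2F factors, had log2 fold changes of 0.47 ± 0.22 and -0.50 ± 0.32. The estimates without controls 1 and 3 were 0.51 for RB1, 0.68 for LIN52 and -0.25 for TFDP1. Of 16 targets of p53 and other arrest genes tested, 0 were called by edgeR. At an unadjusted p under 0.05, 3 were higher and 1 was lower, beside the same shares of all genes, 7.52% and 7.65%. Above 0 lay 11 of the 16, where 49.6% of all genes lay below 0. Their median log2 fold change was 0.20, or 0.17 without controls 1 and 3. Leaving out that pair, 1 gene was higher and 0 were lower at an unadjusted p under 0.05. Of all genes, 9.92% were then higher and 9.58% lower. CCNG2, an unconventional cyclin found in arrested cells, was at 11.9, 10.1, 13.6 and 11.03 CPM in osteoarthritis replicates 1 to 4, against 4.36, 5.51, 3.25 and 8.33 CPM in control replicates 1 to 4 (log2 fold change 1.11 ± 0.29, edgeR adjusted p = 0.13), without overlap. MDM2, the ligase that degrades p53, and PLK2, a p53-induced kinase, had log2 fold changes of 0.59 ± 0.23 and 0.73 ± 0.30, and their groups overlapped. The estimates were smaller without controls 1 and 3, at 0.77 for CCNG2, 0.41 for MDM2 and 0.45 for PLK2.

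The direction of these differences depended on how libraries were put on one scale. A signal recognition particle RNA gene took 17.6% to 22.8% of TPM in osteoarthritis libraries and 34.7% to 45% in controls. The median TPM of a gene was 3.47 to 5.93 in osteoarthritis libraries and 0.465 to 2.07 in controls, and the part of that RNA in this gap was not tested. On the deposited TPM, the median of all genes tested was 1.83 on the log2 scale, all 44 members lay above 0, and limma called 38 members higher, where it called 86.6% of all genes. Relative to the median of all genes, 33 members lay lower and 11 higher on this scale, with medians of -0.28 for S phase and -0.25 for mitosis. Scaled by library size alone, the median of all genes was 0.649, and the S phase and mitosis medians relative to it were -0.49 and -0.36. With all 8 libraries the medians of the S phase and mitosis genes were thus below that of all genes by TMM, library size and deposited TPM, while their sign against 0 changed with the scale.

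**Figure D5:**
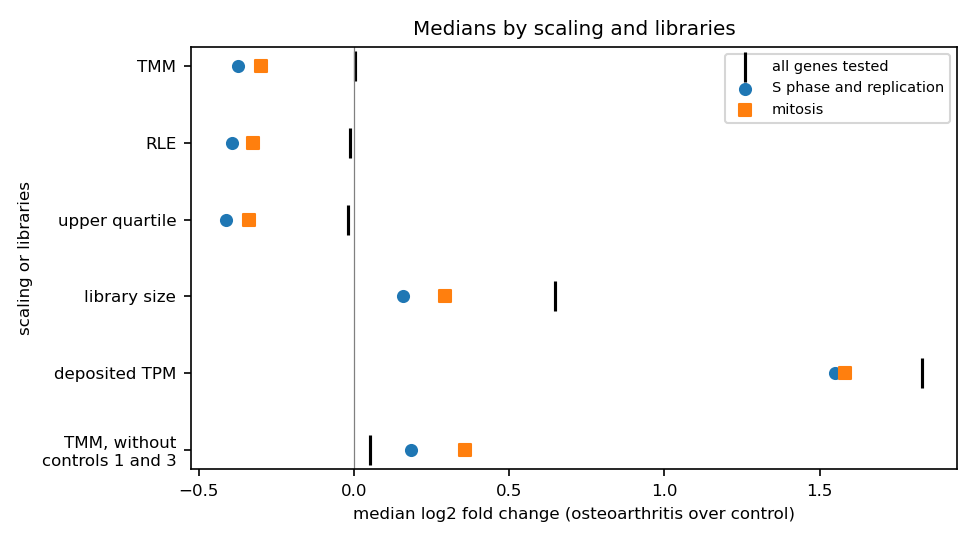
Median log2 fold change of osteoarthritis over control for the S phase genes (circles), the mitosis genes (squares) and all genes tested (vertical bars), under 5 scalings and, in the bottom row, without controls 1 and 3. With all 8 libraries both role groups lie left of the bar for all genes, and without controls 1 and 3 both lie right of it, at 0.18 and 0.36 beside 0.053.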

How the data were processed

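RNA-seq libraries of 4 osteoarthritis and 4 control samples were compared. The deposited table gives, per library, estimated counts, TPM, log2 TPM and effective gene lengths, made by the authors. The submitters' processing notes name Salmon 1.1.0, STAR 2.7.9a, Trim Galore 0.6.7, DESeq2 1.26.0, StringTie 2.1.0 and MultiQC 1.13 on Sscrofa11.1. The sources used here give neither their roles nor the strand setting. The extract protocols name RNeasy Micro, FastSelect rRNA depletion and NEBNext Ultra II Directional kits. The deposited estimated counts were rounded to whole numbers before testing. The authors' TPM could be rebuilt from counts and lengths to a relative difference of 9.6e-15, and served as an alternative, with 0.1 added before the log. The 8 deposited log2 TPM columns were not used.

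After filterByExpr and TMM scaling, counts were tested with edgeR 4.0.16 (R 4.3.3; robust quasi-likelihood, group as the only term). P-values were adjusted over 16020 genes, and a gene was called at an adjusted p under 0.05. SE is the fold change divided by the root of F. Alternatives used limma 3.58.1, DESeq2 1.42.0, other scalings and filters, a replicate block and left-out libraries. Symbols came from the file for 12365 genes and from reference tables for 564 by gene identifier and 593 by Entrez identifier. Coordinates are RefSeq's. All members may be named, and from each other pathway list the 3 genes with the smallest p are. The members, lists and markers were chosen with earlier results of these data known. Promoter and protein sequences were not used here.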

Additional observations from a re-analysis of the deposited data

Results flagged for a closer look

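Of 98 groups of 4 libraries tested (each gene, each role group and the total count in each condition), 3 had a library set apart from its group by more than Dixon's critical value, which chance gives in about 1 in 20. TOP2A in osteoarthritis replicate 4 stood at 41.1 CPM, with a gap of 0.935 of its group's range to the nearest library. BUB1B in the same library stood at 9.62 CPM, with a gap of 0.938 of the range. The mean log2 deviation of the G1 cyclins and kinases in control 4 was -0.30, with a gap of 0.848 of the range.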

How the results depend on the processing

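Called members stayed at 0 under every single left-out library, where genes called ran from 14 to 152 beside 99. Of 44 members, 1 was called by library size alone, beside 214 genes (1.34% of all genes tested). DESeq2 called 2 members and 836 genes (5.22%). With limma-voom and sample weights, 14 members (13 lower, CDKN1A higher) and 3329 genes (20.8%, 1354 of them lower) were called. On deposited TPM, 38 members and 13880 genes (86.6%) were called. With controls 1 and 3 summed, 31 genes and 0 members were called. The labels do not say whether replicate numbers pair samples across the groups. Same-number correlations of deviations were -0.018, -0.083, -0.34 and -0.18, which with 4 libraries per group cannot settle it. The replicate block called 1 gene and 0 members, with medians of -0.406, -0.338, -0.265 and 0.211. Medians of G1, S phase, mitosis and inhibitor genes were 0.233, 0.158, 0.293 and 0.763 by library size alone and 1.44, 1.55, 1.58 and 1.68 on deposited TPM, a shift shared with all genes. Without controls 1 and 3 they were 0.0912, 0.183, 0.358 and 0.0355. With single libraries left out they ran from -0.62 to -0.301, -0.581 to -0.20, -0.515 to -0.14 and 0.0654 to 0.374. Judged against the median of all genes, 25 of 44 members turned direction without controls 1 and 3, 6 on deposited TPM and 3 with an offset for effective lengths (CDK4, CCNE2 and CDC6). Others did so singly: CDC6 (0.213) and CDKN2B (0.0145) with limma-voom, PCNA (-0.0243), RRM1 (-0.111) and BUB1 (-0.181) with sample weights, CDC6 (0.203) with the block, and CDC6 (0.217), TOP2A (0.0117) and KIF11 (0.11) with controls 1 and 3 summed. With single libraries left out, CDK4 (-0.169 to 0.0384), CCNE2 (-0.13 to 0.25), CDC6 (-0.309 to 0.292), RRM1 (-0.07 to 0.231), TOP2A (-0.451 to 0.041), CDK1 (-0.133 to 0.208), BUB1 (-0.125 to 0.317) and KIF11 (-0.272 to 0.169) did. The cause was not tested. The description of promoter motifs was not run. Low counts limit CDKN2B, CDC6, NDC80, CCNE2 and UNG.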
